A study of Mus musculus with 6 samples.

Results

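The genes described here encode the factors that start and elongate protein synthesis on cytosolic ribosomes, the eukaryotic initiation factors (eIFs) and elongation factors (eEFs), together with the kinases, binding proteins and methyltransferases that act on them. They were chosen by symbol alone, as every gene whose name begins with Eif1 to Eif6 or with Eef1 or Eef2, leaving out the interferon-induced kinase Eif2ak2 and 4 pseudogene entries. That gave 67 of the 16131 genes listed in the deposited table, and all 67 passed the filter on low values. The tissue was wounded skin, taken on day 7, of C57BL/6 mice in which streptozotocin, which destroys pancreatic beta cells, had caused diabetes. In the rFGF4 group the wounds received 10 µl per day of recombinant fibroblast growth factor 4 at 100 ng/ml, and in the PBS group 10 µl per day of phosphate-buffered saline. Both groups therefore carried the diabetes and the wound, and each had 3 poly(A) RNA-seq libraries. Nothing in the labels ties each library to its own animal, so the p-values rest on library-to-library spread that may be technical.

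Initiation begins when eIF1, eIF1A, eIF3 and eIF5 gather on the small ribosomal subunit with eIF2, which carries the initiator tRNA, and when the eIF4F complex brings the capped end of an mRNA to it. eIF5 then triggers GTP hydrolysis by eIF2, eIF5B joins the large subunit, and eIF2B reloads eIF2 with GTP. Kinases that phosphorylate the alpha subunit of eIF2 under stress block that reloading, and 4E-binding proteins, which mTOR switches off, keep eIF4E out of eIF4F. During elongation eEF1A delivers aminoacyl-tRNA, the eEF1B subunits recharge it, and eEF2 moves the ribosome along. In skin repair, growth factors such as FGFs act through kinase cascades that reach several of these steps at the protein level, which RNA values do not show.

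Few of these genes passed the test of rFGF4 against PBS. At an adjusted p under 0.05 in limma's test across all genes, Eif1a, Eif5, Eif5a2 and Eif2ak3 were higher with rFGF4, by 1.48-fold to 1.70-fold, and Eif3k was lower, at 0.595 of its PBS level. The 4 higher members were 5.97% of the 67, where 8.46% of all 14676 tested genes were higher, and the 1 lower member was 1.49%, where 3.62% of all tested genes were lower. Over all tested genes, the calls split into 1241 higher and 532 lower, against 138 and 617 under median centring and 235 and 514 under quantile normalization. The values that follow are FPKM (fragments scaled by transcript length and by the mapped total of the library), a level per length, and fold changes are on the log2(FPKM + 0.1) scale, rFGF4 over PBS, which understates the change of low genes.

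Fold changes in these libraries followed transcript length, for these genes as for the rest of the table. Across the 67 members the log2 fold change had a Spearman's rho of 0.54 with the length of the annotated principal transcript, and across 14393 tested genes with a known length it was 0.50. Both are descriptions over genes that share the same 6 libraries. For the 13 members under 1500 bases the median log2 fold change was -0.16 and 3 of them were above 0, whereas for the 15 members of 4000 bases or more it was 0.34 and 14 of them were above 0. All tested genes of the same lengths had medians of -0.17 and 0.38. The 3 short members above 0 include Eif4g2, whose principal transcript has 742 bases and whose longest has 7995. Each gene's deviation from its mean over the 6 libraries followed length with a rho of 0.419, 0.208 and 0.323 in rFGF4 replicates 1 to 3. In PBS replicates 1 to 3 that rho was -0.357, -0.341 and -0.368. The length trend thus ran with the groups, and length and treatment cannot be told apart in these libraries. Values are therefore also given relative to the median of genes in the same length class for the called members. For these and several others they are given after the length trend had been taken out of every library.

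**Figure D1:**
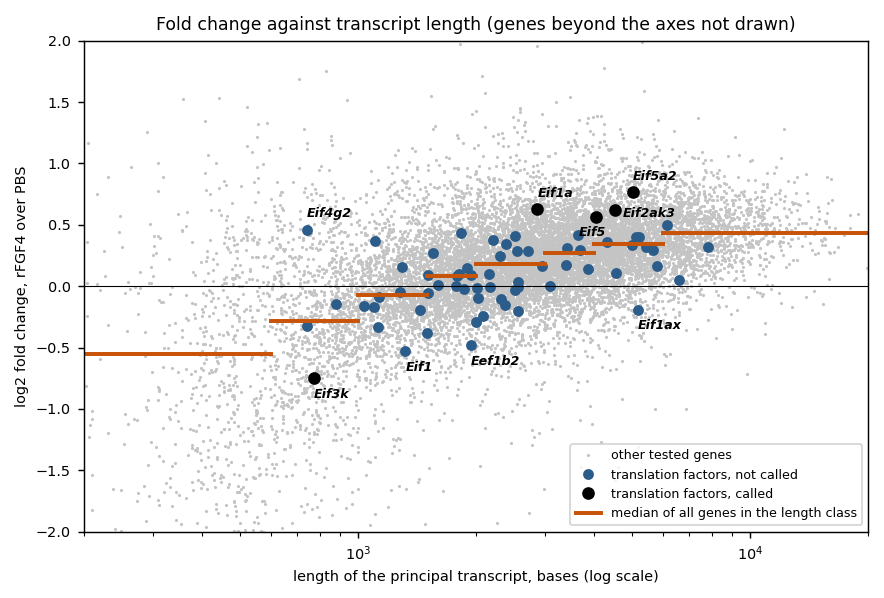
Log2 fold change (rFGF4 over PBS) of the 67 members against principal transcript length in bases (log axis), over the other tested genes (grey), with the median of all tested genes in each length class as a bar. The class medians climb with length, with -0.55 in the shortest class and 0.43 in the longest, and Eif3k sits at the short end while Eif5, Eif5a2 and Eif2ak3 sit toward the long end.

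Sequence around the annotated start is shown for 4 of the called members, for the most abundant member and for the only 2 members whose annotated start has the C followed by 4 pyrimidines (C or T) that a 5′ terminal oligopyrimidine (TOP) mRNA would begin with, a feature of many mTOR-controlled translation genes. Each line runs 5′ to 3′ along the gene's strand, from 20 bases before the RefSeq start, with the first 5 bases from that start in capitals (RefSeq, GRCm38.p6).
Eif5, chr12:111538081-111538110, plus strand: agcgtgagatcgacgtgcatGCGAGccaat
Eif5a2, chr3:28781257-28781286, plus strand: ggcggggcgggcccgggctgGGCGGgccgg
Eif2ak3, chr6:70844495-70844524, plus strand: ccaatcgcagagcagacgcaCGGAAccctc
Eif3k, chr7:28981879-28981908, minus strand: aaaaaaaaacaaccggcgctGGTGCtgaaa
Eef1a1, chr9:78481715-78481744, minus strand: cgtgtgctggctccgccctcTTCCCgaggg
Eif3f, chr7:108934395-108934424, plus strand: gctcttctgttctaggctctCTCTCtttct
Eif2s3x, chrX:94212642-94212671, minus strand: ggcggctgccgagcattttcCTTTTctctc
The start was matched for 52 of the 67 members. A C followed by 4 pyrimidines on the gene's strand, at the annotated first base alone, stood in 2 of those 52 members (3.85%) and in 813 of the 27025 genes of the whole RefSeq table (3.01%). An annotated start need not be the start used in skin, and Eef1a1, a textbook TOP mRNA, has no such match here, so the letters describe the annotation. None of the 4 called members printed above has the match.

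Among the factors that scan for the start codon and join the subunits, Eif1a and Eif5 rose with rFGF4. Eif1a, an autosomal gene of the eIF1A family, which promotes scanning (chromosome 18, 46597701 to 46616456, GRCm38), had 18.6, 19.1 and 22.6 FPKM in rFGF4 replicates 1 to 3, against 13.5, 12.4 and 13.0 FPKM in PBS replicates 1 to 3. Every rFGF4 library was above every PBS library. The means were 20.1 ± 2.14 and 12.95 ± 0.55 FPKM (SD, n = 3 each), a log2 fold change of 0.63 (SE 0.118, limma adjusted p = 0.026). That was 0.44 above the median of genes of similar length. Removing the length trend left 0.37, with an adjusted p of 0.196 in limma. Its X-linked relative Eif1ax had 13.6, 15.8 and 12.9 FPKM with rFGF4, against 18.4, 15.97 and 14.1 FPKM with PBS. Those groups overlapped, and Eif1ax did not pass the test (log2 fold change -0.19, limma adjusted p = 0.405). Removing the length trend took Eif1ax to -0.57 (limma adjusted p = 0.116).

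Eif5, the activator of GTP hydrolysis by eIF2 (chromosome 12, 111538016 to 111546752), had 51.5, 47.4 and 48.5 FPKM in the rFGF4 libraries, against 31.9, 34.8 and 32.8 FPKM in the PBS libraries. The groups were well apart, with the lowest rFGF4 value above the highest PBS value. Means of 49.1 ± 2.1 and 33.2 ± 1.52 FPKM (SD, n = 3 each) gave a log2 fold change of 0.57 (SE 0.108, limma adjusted p = 0.0271), 0.22 above the median of genes of similar length. Removal of the length trend left 0.24, with a limma adjusted p of 0.346. Eif5b, the GTPase of subunit joining, had 17.0, 14.3 and 14.8 FPKM with rFGF4, against 12.2, 12.5 and 11.9 FPKM with PBS. The groups did not overlap, but the difference missed the threshold (log2 fold change 0.32, limma adjusted p = 0.102), and its sign turned to -0.12 once the length trend was removed.

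Eif1, the gatekeeper of start codon choice and the most abundant of the group, lay the other way. It had 59.5, 106 and 105 FPKM with rFGF4, against 121, 128 and 130 FPKM with PBS, without overlap. rFGF4 replicate 1 was far below the other rFGF4 libraries, and the difference missed the threshold (log2 fold change -0.53, limma adjusted p = 0.18). Without rFGF4 replicate 1 the value was -0.26, and with the length trend removed from all 6 libraries it was -0.51. In the group as a whole, 2 of 7 members were called higher and none lower, where 8.46% of all tested genes were higher and 3.62% lower. Eif1a, Eif5 and Eif5b were above 0 and the other 4 below 0. With the length trend removed none of the 7 was called. Removal of the length trend put Eif5b below 0 and Eif1b just above it, at 0.0059.

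eIF2 itself had no called subunit. The eIF2 list holds its subunits and the alternative initiator-tRNA carriers Eif2a and Eif2d. All 6 genes of the list had log2 fold changes above 0, with a median of 0.30 and an unadjusted limma p under 0.05 for 2 of them. Of all tested genes, 69.8% were above 0 and 25.5% were higher at an unadjusted limma p under 0.05. Under median centring, quantile normalization or removal of the length trend 5 of the 6 were above 0, and with lengths from the longest transcript 3 of 6. The X- and Y-linked gamma subunit genes of eIF2 lay side by side. Eif2s3y had 31.3, 26.5 and 23.8 FPKM with rFGF4, against 22.1, 17.9 and 20.1 FPKM with PBS (log2 fold change 0.43, limma adjusted p = 0.0929, and 0.31 with the length trend removed). Eif2s3x had 31.9, 29.3 and 26.7 FPKM with rFGF4, against 26.0, 20.7 and 19.4 FPKM with PBS (log2 fold change 0.42, limma adjusted p = 0.106, and 0.11 with the length trend removed). In both, the lowest rFGF4 library stood just above the highest PBS library. Eif2s3y and the Y-linked genes Uty, Ddx3y and Kdm5d were listed in all 6 libraries, and Xist was not listed in the table.

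The 3 eIF2 alpha kinases among the members were each higher in every rFGF4 library than in any PBS library. Of these, Eif2ak3 (PERK), the endoplasmic reticulum stress sensor, passed the test. Such separation of the groups was seen in 30.9% of all tested genes, and in 2228 of the 4000 tested genes of 4000 bases or more. Eif2ak3 (chromosome 6, 70844515 to 70905245) had 6.33, 6.87 and 7.77 FPKM with rFGF4, against 3.93, 4.40 and 5.21 FPKM with PBS. Means of 6.99 ± 0.724 and 4.51 ± 0.646 FPKM (SD, n = 3 each) gave a log2 fold change of 0.62 (SE 0.15, limma adjusted p = 0.0442), 0.28 above the median of its length class. Its value without the length trend was 0.27, with a limma adjusted p of 0.419. The heme-regulated kinase Eif2ak1 had 11.7, 10.4 and 10.1 FPKM with rFGF4, against 9.20, 7.66 and 8.20 FPKM with PBS (log2 fold change 0.36, limma adjusted p = 0.0961). The amino acid sensor Eif2ak4 (GCN2) had 3.53, 3.32 and 3.63 FPKM with rFGF4, against 2.39, 2.54 and 2.97 FPKM with PBS (log2 fold change 0.40, limma adjusted p = 0.110). The median log2 fold change of these 3 kinases, 0.40, was 0.02 after removal of the length trend, so as a group they lay close to genes of their length. Eif2ak2, the eIF2 alpha kinase left out of the members, did not separate the groups. It had 12.9, 8.66 and 7.29 FPKM with rFGF4, against 7.68, 6.01 and 8.63 FPKM with PBS (log2 fold change 0.34, limma adjusted p = 0.378). The exchange factor eIF2B showed no called subunit, and its members ranged from -0.10 to 0.27. Eif2b5, its catalytic and most abundant subunit, averaged 20.2 ± 2.86 FPKM with rFGF4 and 20.4 ± 3.57 FPKM with PBS (SD, n = 3 each), a difference far inside the spread. Eif2b3, which had the smallest p of the subunits, averaged 3.28 ± 0.632 FPKM with rFGF4 and 2.71 ± 0.535 FPKM with PBS, and missed the threshold (limma adjusted p = 0.416).

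**Figure D2:**
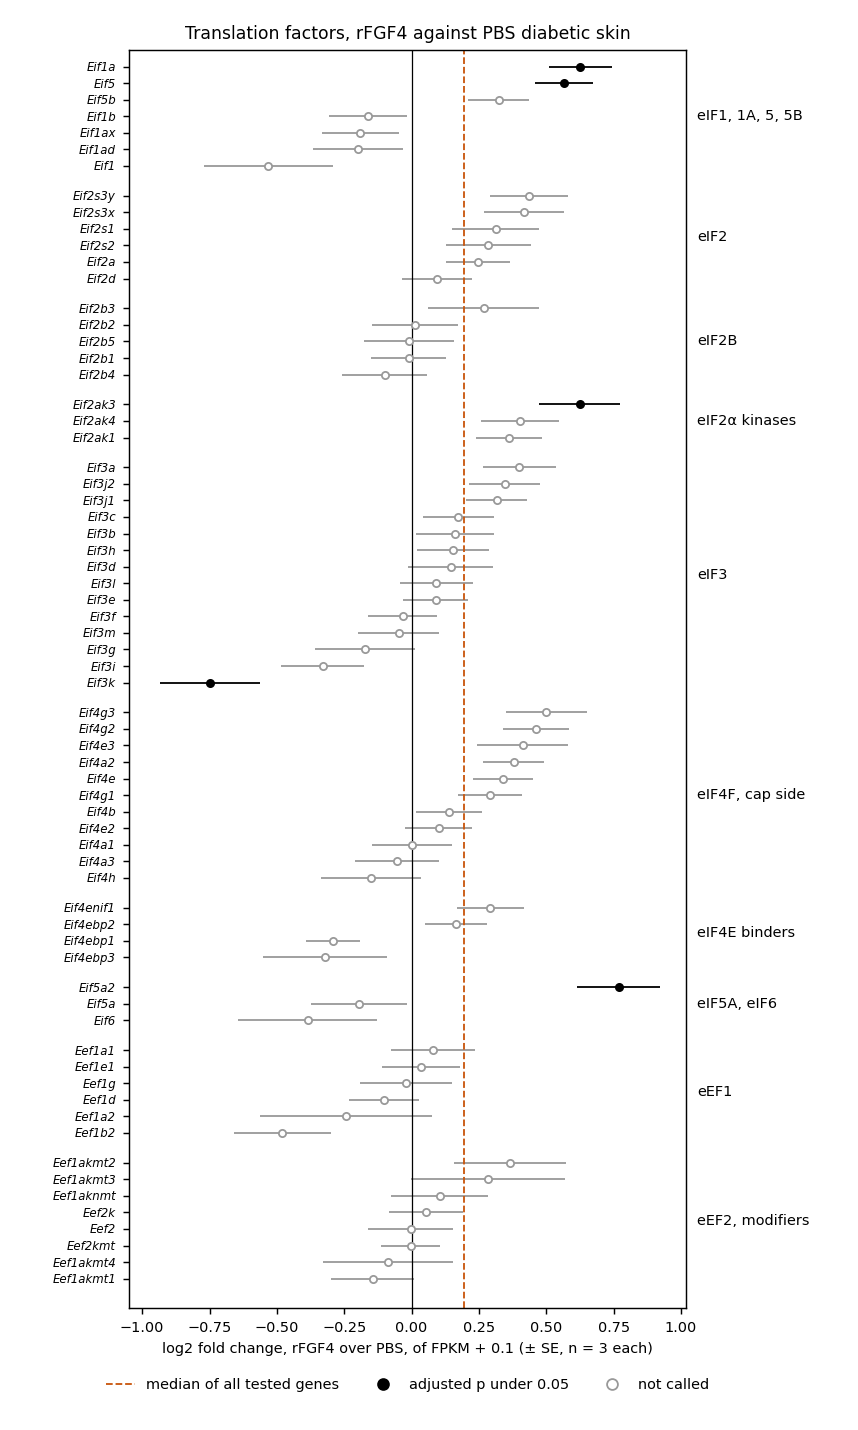
Log2 fold change (rFGF4 over PBS) with its standard error for each of the 67 members, arranged by factor group. Filled points mark the 5 members with a limma adjusted p under 0.05: Eif1a, Eif5, Eif5a2 and Eif2ak3 above 0 and Eif3k below 0.

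eIF3, the largest initiation factor, was measured at 14 subunit genes, and its subunits did not differ alike. Eif3k, a small non-core subunit (chromosome 7, 28971372 to 28981864), fell, with 25.2, 40.1 and 33.3 FPKM in rFGF4 libraries, against 58.9, 52.9 and 51.3 FPKM in PBS libraries. Every rFGF4 value was below every PBS value, and rFGF4 replicate 1 was the lowest. The means were 32.8 ± 7.47 and 54.3 ± 4.03 FPKM (SD, n = 3 each), a log2 fold change of -0.75 (SE 0.185, limma adjusted p = 0.0466). Its principal transcript has 774 bases, and the value was -0.47 relative to the median of genes of similar length. With the length trend removed it was -0.40 (limma adjusted p = 0.196), but with its longest annotated transcript of 1782 bases in that correction it was -0.81 and called (limma adjusted p = 0.0482). Once the length trend is removed, a call for Eif3k therefore turns on which transcript length is taken. Without a length correction, it passed under median centring (limma adjusted p = 0.0310) and missed the threshold under quantile normalization (limma adjusted p = 0.0546).

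At the other end of the complex stood Eif3a, the large scaffold subunit, with 54.5, 43.3 and 42.5 FPKM with rFGF4, against 36.9, 35.1 and 33.7 FPKM with PBS. The groups did not overlap, and the difference missed the threshold (log2 fold change 0.40, limma adjusted p = 0.0972). With the length trend removed Eif3a was at 0.02. Eif3h, the most abundant subunit, had 136, 142 and 122 FPKM with rFGF4, against 130, 112 and 117 FPKM with PBS, with overlap (log2 fold change 0.16, limma adjusted p = 0.471, and -0.0253 under median centring). Eif3i, a WD-repeat subunit, had 21.6, 30.6 and 25.0 FPKM with rFGF4, against 33.2, 33.6 and 29.5 FPKM with PBS, and the highest rFGF4 library exceeded the lowest PBS library (log2 fold change -0.33, limma adjusted p = 0.192, and -0.21 with the length trend removed). Across the 14 subunits the fold change followed transcript length with a Spearman's rho of 0.85, again over genes that share the 6 libraries. In all, 9 were above 0 and 5 below 0, which median centring turned to 3 and 11, quantile normalization to 10 and 4, and removal of the length trend to 5 and 9, so no direction holds for eIF3 as a complex.

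**Figure D3:**
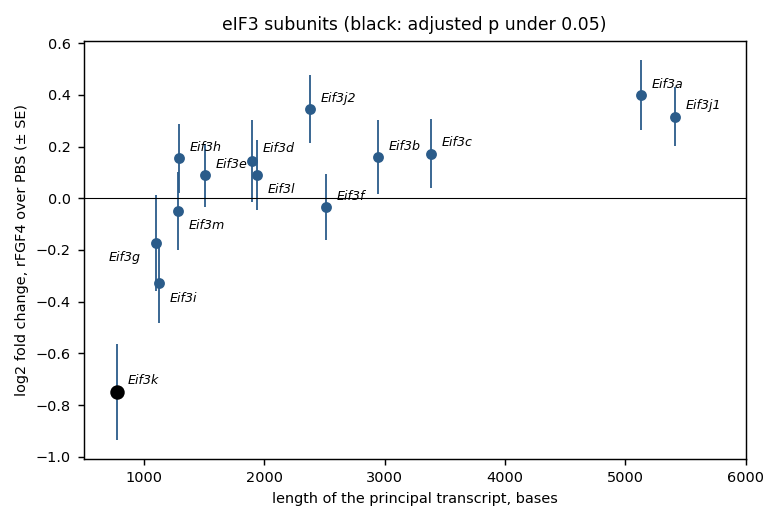
Log2 fold change (rFGF4 over PBS, with its SE) of the 14 eIF3 subunit genes against the length of the principal transcript in bases. Eif3k, the shortest at 774 bases, has the lowest value (-0.75, black), and Eif3a, among the longest, has the highest (0.40).

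In eIF4F and its cap-side partners no gene was called in limma's test, although 6 of 11 had an unadjusted p under 0.05 there and 5 of 11 had rFGF4 values all above the PBS values. The shares over all tested genes were 25.5% and 30.9%. The closest to the threshold was Eif4g2 (DAP5), an eIF4G relative that works without eIF4E, with 91.8, 98.3 and 98.9 FPKM with rFGF4, against 74.7, 71.6 and 63.8 FPKM with PBS. Its log2 fold change was 0.46 (limma adjusted p = 0.0549). Quantile normalization brought it past the threshold at 0.56 (limma adjusted p = 0.0451), and so did a filter of at least 5 FPKM in 3 libraries (limma adjusted p = 0.0438). Taking out the length trend made it 0.83 and called (limma adjusted p = 0.0261) if its principal transcript of 742 bases is taken, but 0.02 (limma adjusted p = 0.949) with its longest transcript of 7995 bases.

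Eif4a2, a helicase of eIF4F, had 71.0, 75.7 and 77.7 FPKM with rFGF4, against 56.5, 55.3 and 60.7 FPKM with PBS (log2 fold change 0.38, limma adjusted p = 0.0727, and 0.19 with the length trend removed). Its near-identical relative Eif4a1, the most abundant gene of the group, had 115, 148 and 123 FPKM with rFGF4, against 137, 123 and 123 FPKM with PBS. Those groups overlapped (log2 fold change 0.00, and -0.18 under median centring), and reads of Eif4a1 may be shared with a pseudogene copy. The cap-binding subunit Eif4e had 18.3, 19.7 and 16.6 FPKM with rFGF4, against 14.6, 13.8 and 14.6 FPKM with PBS (log2 fold change 0.34, limma adjusted p = 0.0862), and its sign turned to -0.032 when the length trend was removed. Eif4g3, a scaffold of eIF4F, had 21.6, 17.6 and 17.1 FPKM with rFGF4, against 14.3, 11.3 and 14.1 FPKM with PBS, and missed the threshold (log2 fold change 0.50, limma adjusted p = 0.0702, and 0.09 with the length trend removed). Of the 11 genes, 9 were above 0, which was 6 under median centring, 8 under quantile normalization and 4 with the length trend removed.

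Among the 4E-binding proteins, which hold back eIF4E, Eif4ebp1 (4E-BP1) had 13.7, 14.3 and 13.4 FPKM with rFGF4, against 16.5, 16.4 and 17.9 FPKM with PBS. The groups did not overlap and each was tight, at 13.8 ± 0.438 and 16.95 ± 0.86 FPKM (SD, n = 3 each), but the difference missed the threshold (log2 fold change -0.29, limma adjusted p = 0.101). Under median centring, which subtracts each library's median, it was -0.47 and called (limma adjusted p = 0.0393). Without the length trend it was -0.44 (limma adjusted p = 0.0813). Eif4ebp2, the most abundant of the 4, had 23.9, 26.3 and 26.3 FPKM with rFGF4, against 25.1, 22.1 and 21.3 FPKM with PBS, with overlap (log2 fold change 0.16, limma adjusted p = 0.378).

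**Figure D4:**
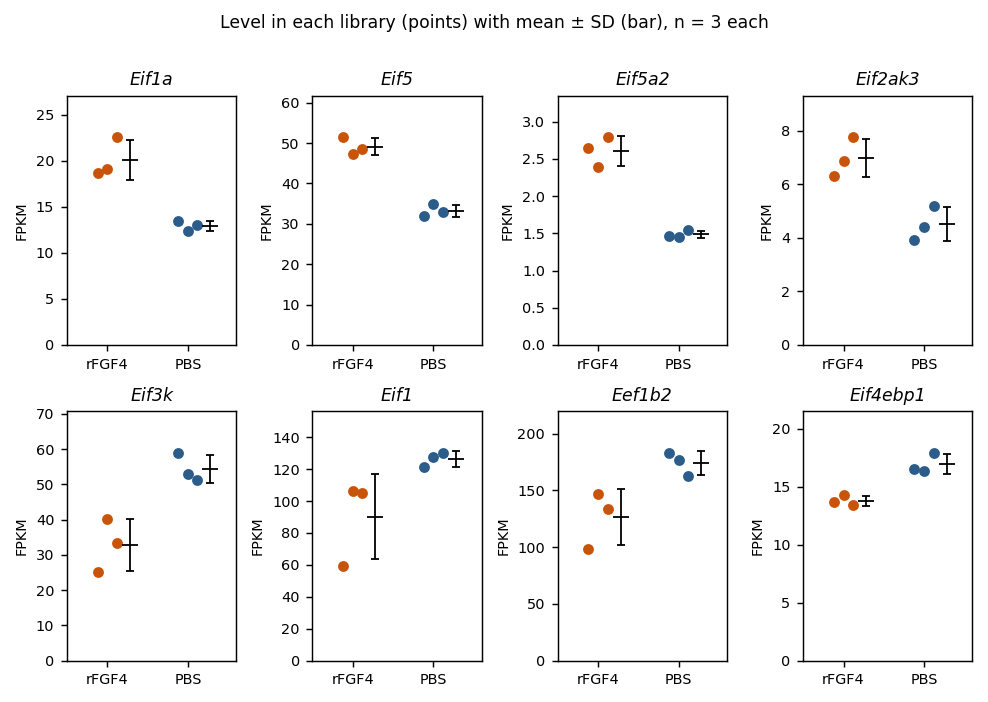
FPKM in each library (points) with the group mean and SD (bars, n = 3 each), rFGF4 left of PBS, for the 5 called members and for Eif1, Eef1b2 and Eif4ebp1. For Eif1a, Eif5, Eif5a2 and Eif2ak3 all rFGF4 points lie above all PBS points, and for the other 4 genes they all lie below.

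eIF5A is the factor that carries hypusine and relieves stalled ribosomes, and its rarer form rose. Eif5a2 (chromosome 3, 28781276 to 28798846) had 2.65, 2.39 and 2.79 FPKM with rFGF4, against 1.46, 1.46 and 1.55 FPKM with PBS. The rFGF4 values lay clear of the PBS values. Means of 2.61 ± 0.203 and 1.49 ± 0.0496 FPKM (SD, n = 3 each) gave a log2 fold change of 0.77 (SE 0.154, limma adjusted p = 0.0298), 0.42 above its length class. Once the length trend was removed it was 0.40, with a limma adjusted p of 0.262. The common form, Eif5a, was far more abundant at 164, 224 and 185 FPKM with rFGF4, against 251, 210 and 195 FPKM with PBS, and the groups overlapped (log2 fold change -0.20, limma adjusted p = 0.498, with the sign turned to 0.07 by quantile normalization). Eif6, which keeps free large subunits from joining, had 17.7, 29.2 and 30.9 FPKM with rFGF4, against 34.9, 39.5 and 25.9 FPKM with PBS, with overlap (log2 fold change -0.39, limma adjusted p = 0.352, and -0.42 with the length trend removed).

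The elongation factors held the highest levels per length and no gene called in limma's test, where Eef1b2 alone had an unadjusted p under 0.05. Eef1a1 had 2291, 2548 and 2343 FPKM with rFGF4, against 2381, 2171 and 2243 FPKM with PBS, and made up 46.6%, 45.2% and 44.6% of the summed FPKM of the 67 members in rFGF4 libraries and 43.3%, 44.0% and 45.3% in PBS libraries. The groups overlapped (log2 fold change 0.08, limma adjusted p = 0.772, and below 0 at -0.10 under median centring and -0.03 with the length trend removed). The exchange subunit Eef1b2 had 98.8, 147 and 133 FPKM with rFGF4, against 183, 177 and 163 FPKM with PBS. It was lower in every rFGF4 library, but rFGF4 replicate 1 lay well below the other rFGF4 libraries and the difference missed the threshold (log2 fold change -0.48, limma adjusted p = 0.122). Without rFGF4 replicate 1 it was -0.31, and without the length trend, over all 6 libraries, -0.62. Eef2, the translocase, had 486, 580 and 599 FPKM with rFGF4, against 598, 528 and 536 FPKM with PBS, with a log2 fold change of -0.00 that became -0.27 without the length trend and 0.47 under quantile normalization. Eef1akmt2, known in human as a lysine methyltransferase of eEF1A and the gene with the smallest p among eEF2 and the modifying enzymes, had 8.08, 7.32 and 6.09 FPKM with rFGF4, against 7.23, 4.41 and 5.23 FPKM with PBS (log2 fold change 0.36, limma adjusted p = 0.276).

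Eef1a2, the eEF1A form of muscle and nerve, had 39.3, 23.1 and 43.2 FPKM with rFGF4, against 56.2, 28.8 and 40.1 FPKM with PBS (log2 fold change -0.24, limma adjusted p = 0.646). The summed FPKM of 14 skeletal muscle markers, all 14 of which were listed, was 3185, 1841 and 3832 in those rFGF4 libraries and 6188, 2897 and 3802 in those PBS libraries. Eef1a2 and the muscle sum put the libraries in the same order within each group. The part of muscle in the Eef1a2 values was not tested. In bulk tissue, fewer cells of a type and less RNA per cell cannot be told apart.

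Paired factors were also compared within a library, where the library's scale cancels but a length trend does not. With 3 against 3 libraries the exact two-sided permutation test cannot give a p below 0.1. Without overlap, 6 of 12 ratios reached it (adjusted p = 0.2 over the 12, exact test). The pair Eif1a to Eif1ax, 1 of these 6, was added to 11 planned pairs after its values were seen, so its separation was known beforehand. How often other pairs of genes separate was not computed, so the count of 6 has no background share. The ratio of Eif5a2 to Eif5a was 0.0162, 0.0107 and 0.0151 with rFGF4, against 0.00584, 0.00693 and 0.00794 with PBS, a log2 difference of 1.00 that was 0.61 with the length trend removed. The ratio of Eif4ebp1 to Eif4e, inhibitor over target, was 0.748, 0.727 and 0.809 with rFGF4, against 1.14, 1.19 and 1.23 with PBS, a log2 difference of -0.64 that was -0.41 with the length trend removed. Each of these ratios separated the groups completely. The ratio of Eif1a to Eif1ax, a pair added after its values were seen, was 1.37, 1.21 and 1.75 with rFGF4, against 0.733, 0.775 and 0.924 with PBS, a log2 difference of 0.82 that was 0.94 with the length trend removed. The ratio of Eif4a2 to Eif4a1 averaged 0.588 ± 0.0668 with rFGF4 and 0.452 ± 0.0397 with PBS (SD, n = 3 each). The other 2 ratios without overlap were Eif4g2 to Eif4g1 and Eif1b to Eif1, the latter at a log2 difference of 0.37. For Eif4g2 to Eif4g1 the log2 difference was 0.17, and 0.94 with the length trend removed. That correction took Eif4g2 as 742 bases, its principal transcript, where its longest has 7995 bases. The ratios Eef1a2 to Eef1a1, Eif4ebp2 to Eif4e, Eif4g3 to Eif4g1, Eif3j2 to Eif3j1, Eif4e3 to Eif4e and Eef2k to Eef2 overlapped between the groups.

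**Figure D5:**
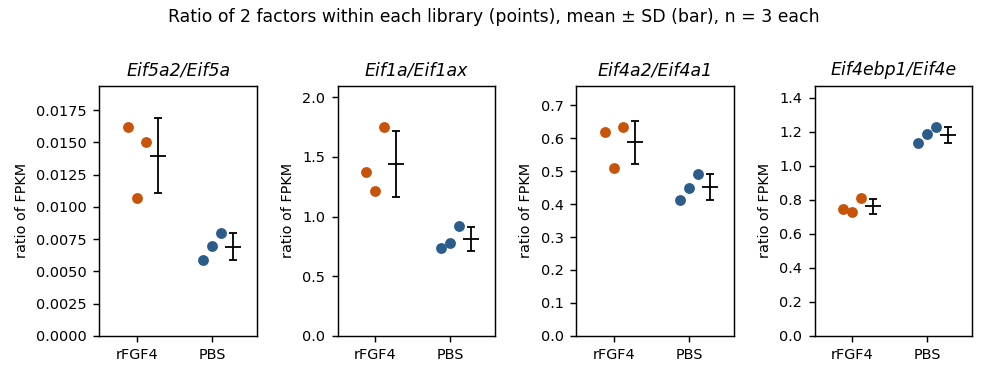
Ratio of the FPKM of 2 members in each library (points) with the group mean and SD (bars, n = 3 each), rFGF4 left of PBS. Eif5a2 over Eif5a, Eif1a over Eif1ax and Eif4a2 over Eif4a1 lie higher in all rFGF4 libraries, and Eif4ebp1 over Eif4e lies lower in all of them.

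Fold changes across the table lay mostly above 0. Of the 67, 41 (61.2%) had a log2 fold change above 0, against 69.8% of all tested genes, and the median was 0.096, against 0.194 for all tested genes. Median centring of each library moved those medians to -0.085 for the factors and 0.014 for all tested genes. Quantile normalization put them in the other order, at 0.111 for the factors and 0.066 for all tested genes. In all, 19 members (28.4%) were higher in every rFGF4 library than in any PBS library, where 30.9% of all tested genes were, and 4 (6.0%) were lower in that sense, where 7.36% were. At an unadjusted p under 0.05 in limma's test, 18 members (26.9%) were higher and 3 (4.48%) lower, where 25.5% of all tested genes were higher, 6.58% lower and 32.1% either. Their share of the summed FPKM of a library was 1.576%, 1.851% and 1.687% with rFGF4, against 1.755%, 1.544% and 1.596% with PBS, with overlap. Within a group the median SD on the log2 scale was 0.166 for the members and 0.223 for all tested genes. The libraries also differed among themselves, with rFGF4 replicate 2 the highest rFGF4 library for 40 of the 67 members and PBS replicate 1 the highest PBS library for 47.

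The authors' deposited table, which carries its own p-values and q-values, had 2 members higher and 5 lower at a q under 0.05, where 4.49% of the 16131 listed genes were higher and 6.63% lower. Its higher members were Eif5a2 (q = 0.0078) and Eif1a (q = 0.0306), and its lower members were Eif3k, Eif4ebp1, Eef1b2, Eif3i and Eif1. Of the members called by either approach, Eif5a2, Eif1a and Eif3k were called by both. The authors' q-values were not highest at a fold of 1. Eef2, at a fold of 1.00, had q = 0.355, while Eif3c, at 1.13, had q = 0.902 and Eif2s1, at 1.24, had q = 0.784. In limma's test Eef2 had an adjusted p of 0.993. The 2 splits into higher and lower may therefore not share a zero point, and the reason was not tested. Eif4ebp1 had q = 0.000396 and Eef1b2 had q = 0.00321 in the authors' deposited table.

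Genes around the factors were read against the 8.46% of all tested genes called higher and the 3.62% called lower. Of 16 genes of mTOR, MNK and S6 kinase signalling, 2 were called higher and 0 lower. Rps6kb1, the S6 kinase, averaged 9.76 ± 1.15 FPKM with rFGF4 and 6.41 ± 0.635 FPKM with PBS (SD, n = 3 each, limma adjusted p = 0.040). Deptor, an mTOR-binding inhibitor, averaged 5.62 ± 0.43 FPKM with rFGF4 and 4.03 ± 0.033 FPKM with PBS (limma adjusted p = 0.048). Of 17 genes for poly(A) binding, helicases, recycling and release, 3 were called higher and 0 lower, namely the paired helicases Ddx3x (74.8 ± 1.58 FPKM with rFGF4 and 53.8 ± 0.967 FPKM with PBS) and Ddx3y (18.1 ± 1.5 FPKM with rFGF4 and 11.6 ± 1.27 FPKM with PBS) and the release factor Gspt1. Of 21 cytosolic aminoacyl-tRNA synthetases, 1 was called higher, Iars, which charges isoleucine tRNA (14.7 ± 0.169 FPKM with rFGF4 and 10.55 ± 0.718 FPKM with PBS). None of the 14 genes of the integrated stress response and none of the 9 mitochondrial translation factors was called in limma's test. At an unadjusted p under 0.05 in that test, 2 genes of each list were higher and 0 lower. The shares of all tested genes were 25.5% higher and 6.58% lower. Of the stress response genes 6 were above 0 and 8 below 0, and of the mitochondrial factors 7 and 2. After removal of the length trend none of the genes in these lists was called.

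Cytosolic ribosomal protein genes, whose products the factors serve, mostly have short transcripts. Of 87, 47 were called lower and none higher, with a median log2 fold change of -1.09, where 3.62% of all tested genes were called lower. With the length trend removed, 35 were called lower, where 1.63% of all tested genes were. The 9 factors that are textbook TOP mRNAs like the ribosomal proteins, Eef1a1 and Eef2 among them, had no call, and their median was -0.003 on the log2 scale, with 7 of the 9 below the median of their length class. The labelled tissue was checked against cell markers. All 11 keratinocyte markers passed the filter, and their summed FPKM was 5496, 3783 and 5518 with rFGF4 and 6041, 10348 and 3018 with PBS, so skin epithelium was present in every library. Of 8 fibroblast markers 6 were called higher, where 8.46% of all tested genes were, but none of the 8 was called with the length trend removed, when their median log2 fold change was 0.44, against 0.83 before. Their summed FPKM was 4897, 5300 and 5503 with rFGF4 and 2709, 3411 and 3356 with PBS. Neutrophil markers summed to 334, 733 and 243 FPKM with rFGF4 and to 484, 1490 and 2853 FPKM with PBS. None of the 6 was called, and S100a8 and S100a9 made up most of the sum, with 612 and 2139 FPKM in PBS replicate 3. Their log2 fold changes were -2.28 and -1.74, while those of Retnlg, Cxcr2, Csf3r and Mmp8 lay between -0.23 and -0.045. Macrophage markers summed to 477, 698 and 530 FPKM with rFGF4 and to 364, 325 and 520 FPKM with PBS. The part of these cell types in the values of the factors was not tested.

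The 5 calls were close to the threshold. When each library was left out in turn, Eif1a, Eif5, Eif5a2 and Eif2ak3 passed in none of the 6 fits, with limma adjusted p of 0.0531 to 0.09997 for Eif1a, 0.0545 to 0.0944 for Eif5, 0.0559 to 0.103 for Eif5a2 and 0.0674 to 0.1315 for Eif2ak3, and Eif3k passed in 1 of 6 (0.0418 to 0.129, passing without rFGF4 replicate 2). With the length trend removed from all libraries, Eif4g2 was the 1 member called higher and 0 were called lower, where 0.549% and 1.63% of all tested genes were. It passed in that fit without rFGF4 replicate 2 and missed the threshold without any other single library. The call of Eif4g2 rests on a principal transcript of 742 bases. With its longest transcript, of 7995 bases, the value was 0.02 (limma adjusted p = 0.949). At an unadjusted p under 0.05 in the limma fit with principal transcript lengths, 4 members (5.97%) were higher and 8 (11.9%) lower. The shares of all tested genes were 8.14% and 8.18%.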

How the data were processed

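The values are from 1 deposited table of poly(A)-selected, strand-marked (dUTP), paired-end libraries, per the labels' protocols. The 6 value columns were taken as the authors' FPKM, since the header gives no unit, the values are fractional and each library totals between 304717 and 319807. Per the submitters' processing notes the tools were edgeR, StringTie, HISAT2 and fastp, with no versions, and the build was GRCh38, a human one, although the organism and symbols are those of mouse; the reference used is not given in the sources used here. Whether counting used the strand was not stated, so antisense genes are uncertain, as are genes with near-identical copies (Eif4a1, Eef1a1, Eef2 and Eif1 have pseudogenes in the table). The deposited table also holds the authors' p-values and q-values (the q-value equals a Benjamini-Hochberg adjustment), a fold column that is the ratio of group means in 99.9% of lines (within 0.1%) and its log2. It lists genes whose maximum passes 1 FPKM. Depth is unknown: whole reads could not be recovered from the FPKM, so precision is known from the spread of 3 libraries alone. At most 14.5% to 15.4% of scanned values per library lay near whole multiples. That was the best of many trial units, where chance gives 10% for any 1 unit and more for the best. There were 0 value columns without a sample. Pearson's r of log2 values across genes, which are not independent, was 0.943 to 0.954 within groups and 0.897 to 0.94 between them.

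The 14676 genes that reached 1 FPKM in 3 or more libraries entered limma-trend on log2(FPKM + 0.1) (limma 3.58.1 with statmod 1.5.0 in R 4.3.3; robust, two-sided, group as the only term), with Benjamini-Hochberg adjusted p under 0.05 over all of them as the threshold; ratios used exact permutation tests in Python 3.11.15. Lengths are those of the principal transcript in GENCODE M21 (GRCm38), matched for 97.3% of symbols. The length trend was removed per library by loess on log2 length (span 0.3, degree 1). Alternatives were median centring, quantile normalization, other pseudocounts and filters, other lengths, a replicate block and leaving out each library; lengths from the shortest principal transcript and the Eif1a to Eif1ax ratio were added after the data were seen. Named members are those called and, in each factor group, those with the smallest p and the highest FPKM; further members were named after their values were seen, as pair partners or as groups that did not overlap. The members and all gene lists were chosen with earlier results of these data known.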

Additional observations from a re-analysis of the deposited data

How the results depend on the processing

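The numbers of members called higher (4) and lower (1) were the same with pseudocounts of 1 and 0.01, with no filter and with at least 5 FPKM in 3 libraries, but the last called Eif4g2 and left out Eif5a2, whose level is under 5 FPKM. Median centring gave 0 higher and 2 lower members (138 genes higher over the whole table), and quantile normalization 2 and 0 (235 genes higher). Removal of the length trend gave 1 and 0 members with principal transcripts (79 genes higher, 234 lower), 0 and 1 with the longest transcripts (69 and 262) and 1 and 0 with the shortest principal transcripts (80 and 242). Leaving out a library gave 0 members higher in each of the 6 fits and 0 to 1 lower, with 24 to 393 genes higher and 132 to 497 lower. With the length trend also removed it gave 0 to 1 members higher and 0 lower. The median deviation of the members from their length class was -0.038, and -0.098 to -0.012 with a library left out. The cause of these differences was not tested.

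Some named members changed sign, among them Eif5b (0.32, and -0.12 with the length trend removed) and Eif4e (0.34 and -0.032). Under median centring Eef1a1 was -0.10, Eif3h -0.0253, Eif4a1 -0.18 and Eif4ebp2 -0.0169. Under quantile normalization Eef2 was 0.47 and Eif5a 0.0731. With the length trend removed Eef1a1 was -0.0339, Eif4a1 -0.11 and Eif4ebp2 -0.24. With the longest transcripts Eif2b3 was -0.0152, Eif4a1 -0.24 and Eif4ebp2 -0.22, and with the shortest principal transcripts Eef1a1 was -0.0651, Eif4a1 -0.14 and Eif5a 0.0453. With a library left out Eef2 ranged from -0.0604 to 0.0901, Eif2b5 from -0.12 to 0.12 and Eif4a1 from -0.10 to 0.0795.

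No pairing of the libraries by replicate number was seen. Deviations of same-numbered libraries correlated at 0.183, -0.067 and -0.125, and not every library correlated best with its own number. These are deviations from means of 3 libraries, so they cannot exclude shared handling by number. With the number as a replicate block, 31 genes were higher and 202 lower, and 0 members were called in either direction by limma.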
